A study of Culex pipiens pallens and Culex quinquefasciatus with 12 samples.

Results

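Larval cuticle protein A3A (CPIJ001830-RA) and 2 further cuticle protein genes with identifiers close to it, CPIJ001836-RA and CPIJ001839-RA, were followed through 12 RNA-seq libraries of whole mosquito larvae. These 3 genes, of 17757 gene models read in any library, were chosen by identifier with earlier results of the same libraries known, so their levels, their difference between the subspecies and their co-variation are given as descriptions. Counts of test calls among the 3 are printed for completeness, and nothing is read from them. The libraries came from larvae of 2 subspecies of the common house mosquito, 7 libraries from *Culex pipiens pallens* of temperate East Asia and 5 from *Culex pipiens quinquefasciatus* of warm regions. Each library was made from pooled total RNA of 30 larvae by poly(A) selection without strand information. The labels give no strain, sex, instar, age, time since the last moult or treatment, and although the title of the series speaks of resistance levels, no library carries one, so subspecies was the only factor compared.

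The cuticle of an insect is a layered coat of chitin fibres in a matrix of proteins, secreted by the epidermis and replaced at each moult. Cuticle proteins form large gene families that often lie in tandem arrays, and many of their genes are transcribed in short bursts set by the moulting hormone ecdysone. A3A is a name taken over from a larval cuticle protein of the mealworm beetle *Tenebrio molitor*. The files describe CPIJ001836-RA and CPIJ001839-RA only as putative cuticle proteins, so their role is not known beyond that family.

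All 3 genes lay on scaffold supercont3.23. A3A was on the minus strand at 702127 to 702918, CPIJ001836-RA on the plus strand at 717769 to 718591 and CPIJ001839-RA on the plus strand at 726841 to 727493. The 3 gene models were 731, 744 and 537 bases long, in the same order. Between and beside them lay 8 other cuticle protein models, CPIJ001831-RA to CPIJ001835-RA, CPIJ001837-RA, CPIJ001838-RA and CPIJ001840-RA. The 11 models followed each other without any other gene model over 34.0 kb, 8 on the plus and 3 on the minus strand, with gaps of 474 to 7742 bases. The widest gap separated CPIJ001839-RA from CPIJ001840-RA, the last of the row. The files give no exons, so positions are those of whole gene models. The authors counted unique reads alone, and the likeness of the 11 sequences was not analysed here, so reads shared between near-identical copies could not be assigned and the split between models is uncertain.

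Unique reads per library ranged from 3.9e6 to 4.9e6 in pallens and from 4.4e6 to 5.2e6 in quinquefasciatus. Larval markers were present throughout: 12 of 12 larval storage protein models were read in every library. Their summed level was 32280.4 to 170156 counts per 1000000 reads (CPM) in pallens and 89174.2 to 161664 CPM in quinquefasciatus, and the lowest sums were those of pallens 7 and pallens 6 (38837.8 CPM). Pallens 6 and pallens 7 were also the most alike pair of libraries of one subspecies (chi-square per degree of freedom of 15.0), which is far more than repeated sequencing of 1 library would give. The number of genes called between the subspecies, 57, moved by over 1.5 times with each single library left out. It was 230 without pallens 1, 209 without quinquefasciatus 5, 9 without quinquefasciatus 1 or 3, and 12 to 33 without any other. Whether the pools came from separate cultures is not in the labels; the p-values therefore reflect the spread among these pools, which may be technical.

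Transcripts of A3A varied 267-fold between pools of pallens larvae and 586-fold between pools of quinquefasciatus larvae. In pallens its level was 981, 802 and 609 CPM in libraries 2, 5 and 3, 65.8 and 39.4 CPM in libraries 6 and 7, and 5.20 and 3.67 CPM in libraries 1 and 4. In quinquefasciatus it was 626 CPM in library 2, 83.1 CPM in library 1, and 3.67, 2.32 and 1.07 CPM in libraries 5, 3 and 4. CPM here are counts of unique reads scaled to library size with the trimmed mean of M values (TMM). The libraries thus stood on 3 levels, and each level held libraries of both subspecies. Consecutive libraries differed by 7.33-fold between the upper and the middle level and by 7.58-fold between the middle and the lower, and by at most 2.18-fold within a level. The underlying counts ranged from 17 to 4488 reads in pallens and from 5 to 2966 reads in quinquefasciatus. The highest A3A level was 919 times the lowest.

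CPIJ001836-RA was high in the same 4 libraries as A3A. It had 1906, 1739 and 1283 CPM in pallens 5, 2 and 3, 141 and 110.3 CPM in pallens 7 and 6, and 3.90 and 3.45 CPM in pallens 1 and 4. In quinquefasciatus it had 1849.7 CPM in library 2, 433 CPM in library 1, and 16.1, 7.69 and 6.29 CPM in libraries 3, 4 and 5. The same libraries were high, intermediate and low as for A3A, except that quinquefasciatus 1 stood apart from pallens 6 and 7, and that the 3 low quinquefasciatus libraries all lay above the 2 low pallens libraries. The range from the highest to the lowest library was 552-fold.

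CPIJ001839-RA, the shortest of the 3 models, varied less and in another order. It had 173, 124, 61.0, 41.6, 25.3, 10.4 and 8.83 CPM in pallens 2, 5, 3, 4, 6, 1 and 7. In quinquefasciatus it had 18.9, 9.49, 2.99, 2.67 and 2.14 CPM in libraries 5, 2, 4, 1 and 3. Pallens 4, among the lowest libraries for A3A, was the fourth highest here, and quinquefasciatus 5 was above quinquefasciatus 2. The 5 highest libraries were all pallens, and the 3 lowest were all quinquefasciatus. Between them the subspecies overlapped, with quinquefasciatus 5 above pallens 1 and 7 and quinquefasciatus 2 above pallens 7. No gap between consecutive libraries exceeded 2.95-fold, and the whole range was 80.6-fold.

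**Figure D1:**
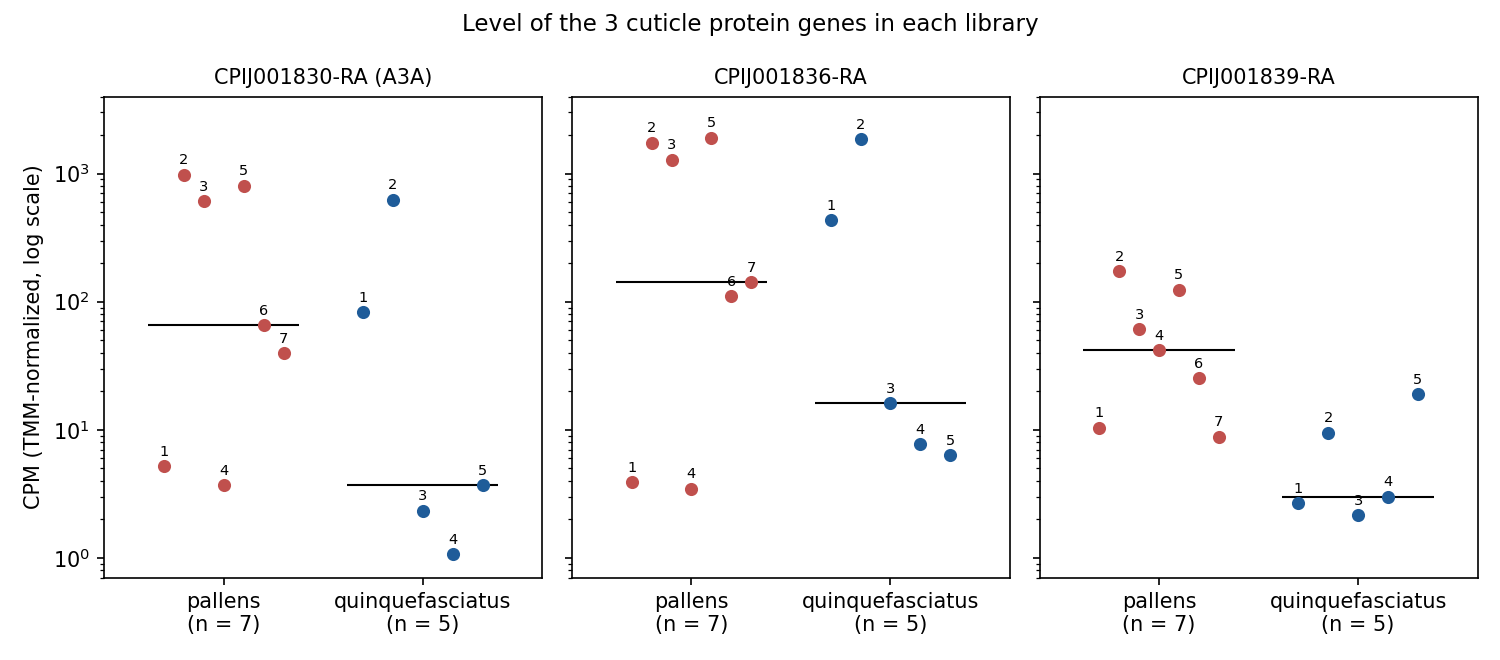
Level of each of the 3 genes in every library, in TMM-normalized CPM on a log scale, pallens left and quinquefasciatus right; each point is a library with its replicate number, and each line is the median of the subspecies. A3A falls on high, middle and low levels in both subspecies, and CPIJ001836-RA is high in the same 4 libraries, whereas CPIJ001839-RA has its 5 highest values in pallens.

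Per length, the genes could be set beside each other in RPKM, reads per kilobase of gene model scaled to library size. The median RPKM of A3A was 95.9 in pallens and 4.18 in quinquefasciatus, that of CPIJ001836-RA 226 in pallens and 23.4 in quinquefasciatus, and that of CPIJ001839-RA 74.0 in pallens and 5.17 in quinquefasciatus. Ranked by RPKM among all gene models of its library, A3A was 128th in pallens 2 and 7596th in pallens 4, and 176th in quinquefasciatus 2 and 10724th in quinquefasciatus 4. CPIJ001836-RA reached 51st place in pallens 5 and 77th in quinquefasciatus 2, and its lowest places were 7826th in pallens 4 and 5813th in quinquefasciatus 5. CPIJ001839-RA ranged from 351st to 3749th in pallens and from 2172nd to 8563rd in quinquefasciatus. CPIJ001836-RA thus exceeded A3A per length in 10 of 12 libraries, all but pallens 1 and pallens 4. In those, the counts were only 15 against 20 reads (pallens 1) and 16 against 17 reads (pallens 4), too few to tell the genes apart.

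The ratio between the genes differed between libraries. The RPKM of CPIJ001836-RA was 0.737 to 3.52 times that of A3A in pallens and 1.68 to 7.07 times in quinquefasciatus, with overlap. The RPKM of CPIJ001839-RA was 0.136 to 15.5 times that of A3A in pallens and 0.0207 to 7.0 times in quinquefasciatus. It exceeded A3A in pallens 1 and 4 and in quinquefasciatus 3, 4 and 5, the 5 libraries with the lowest A3A levels. There A3A had only 5 to 20 reads, and in quinquefasciatus 3 CPIJ001839-RA had 12 reads against 13 on A3A. In the 4 libraries with the highest A3A levels the ratio was 0.240, 0.211 and 0.136 in pallens 2, 5 and 3 and 0.0207 in quinquefasciatus 2. The 11 models together took up to 1.32% of all reads in pallens 2 and 0.792% in quinquefasciatus 2, and as little as 0.00689% in pallens 1 and 0.00488% in quinquefasciatus 4. CPIJ001839-RA made up 0.903% to 19.5% of these reads in pallens and 0.129% to 19.2% in quinquefasciatus.

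Across the 12 libraries, A3A and CPIJ001836-RA moved together between the high, middle and low libraries, though not among the 5 low ones. CPIJ001839-RA followed both of them more loosely. On the scale of log2(CPM + 1), Pearson's r of A3A with CPIJ001836-RA was 0.97 and Spearman's rho 0.86. It was 0.97 over the 10 libraries left without pallens 2 and quinquefasciatus 4, the 2 farthest from the median of A3A, and 0.99 over the 7 pallens libraries. A3A stands on separate levels of 4, 3 and 5 libraries, and no r was computed within a level. Among the 5 low libraries the order was not shared: A3A was lowest in quinquefasciatus 3 and 4, at 2.32 and 1.07 CPM, where CPIJ001836-RA had its 2 highest values of these 5, 16.1 and 7.69 CPM. For A3A with CPIJ001839-RA, r was 0.61 (rho 0.59), 0.75 over the 7 pallens libraries, and 0.42 without the same 2 libraries, so that part of the relation rests on them. For CPIJ001836-RA with CPIJ001839-RA, r was 0.44 (rho 0.29), 0.67 over the 7 pallens libraries, and 0.60 without pallens 1 and 4, the 2 farthest from the median of CPIJ001836-RA. All 3 pairs were computed from the same 12 libraries and share their depth and scaling, and no p is given.

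**Figure D2:**
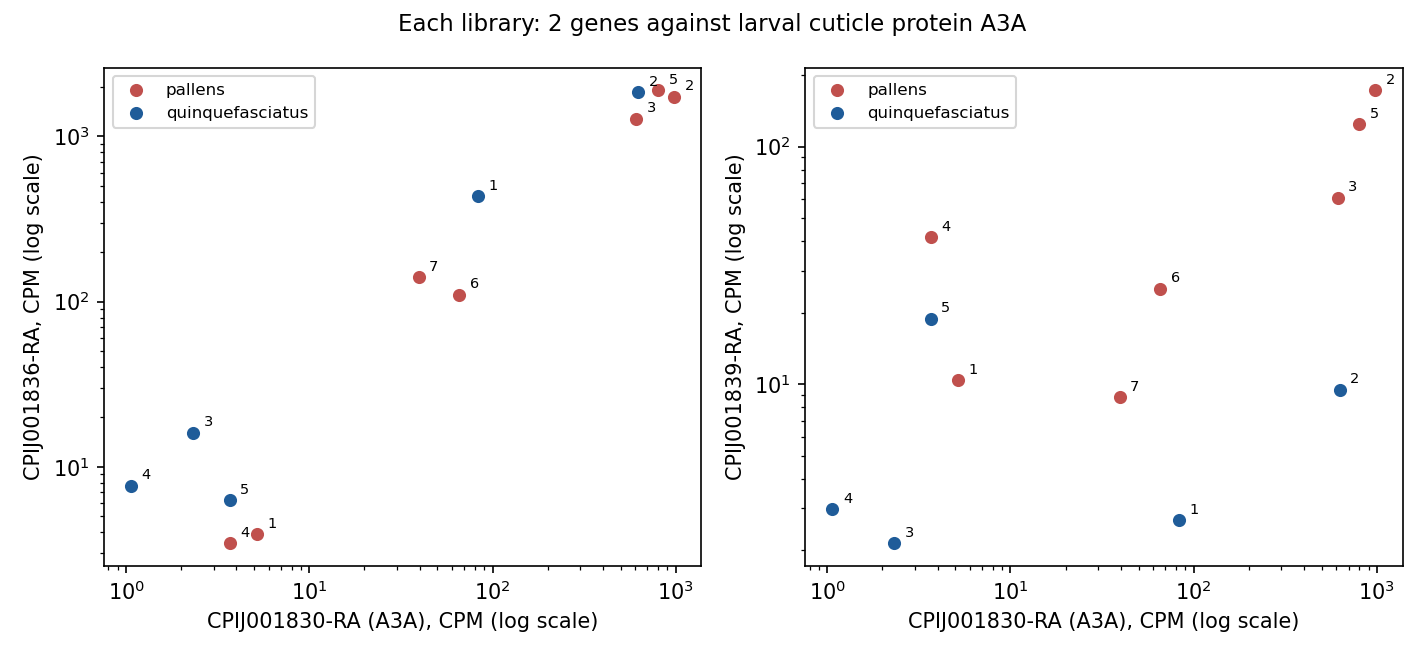
CPM of CPIJ001836-RA (left) and of CPIJ001839-RA (right) against CPM of A3A, both axes on a log scale; each point is a library with its replicate number, coloured by subspecies. The left points run from low to high overall but not among the 5 lowest libraries of A3A, with quinquefasciatus 1 (433 CPM of CPIJ001836-RA) between the upper and the middle points, while on the right pallens 4 and quinquefasciatus 5 combine a low A3A level with 41.6 and 18.9 CPM of CPIJ001839-RA, and quinquefasciatus 1 and 2 combine a middle or high A3A level with 2.67 and 9.49 CPM.

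The 8 cuticle protein genes between and beside the 3 had the pattern of A3A rather than that of CPIJ001839-RA. Their r with A3A over 12 libraries was 0.93 to 0.97 and with CPIJ001836-RA 0.90 to 0.97, while with CPIJ001839-RA it was 0.59 to 0.73. For scale, 63 of the other 10614 tested genes, or 0.594%, had an r of at least 0.9 with A3A, the 8 included, and 2 had one with CPIJ001839-RA. CPIJ001840-RA, at the far end of the row, was the strongest of the 11, with 28.6, 920 and 5214 CPM as lowest, median and highest value in pallens and 13.2, 60.4 and 3277 CPM in quinquefasciatus. It had the highest RPKM of the row in 11 of 12 libraries, the exception being quinquefasciatus 1, where CPIJ001836-RA was first. CPIJ001837-RA, next to CPIJ001836-RA, had 5.39, 43.2 and 791 CPM in pallens and 2.78, 5.72 and 191 CPM in quinquefasciatus. CPIJ001835-RA had the lowest RPKM of the row in 5 libraries, with a single read in pallens 1 and 1200 reads in pallens 2. CPIJ001839-RA was second in the row by RPKM in pallens 1 and 4 and in quinquefasciatus 5, and last in quinquefasciatus 1 and 2.

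**Figure D3:**
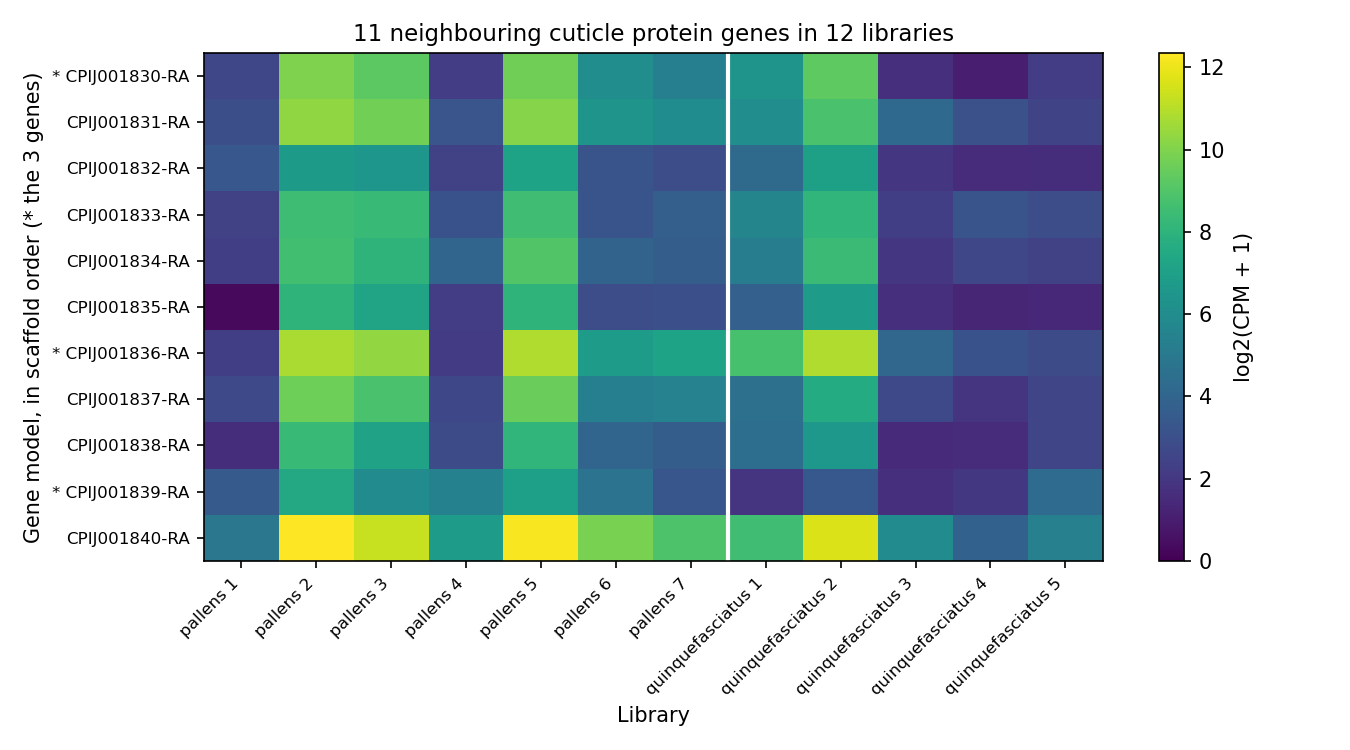
log2(CPM + 1) of the 11 cuticle protein models of the row, in scaffold order from top to bottom, in the 7 pallens (left) and 5 quinquefasciatus (right) libraries; asterisks mark the 3 genes and the white line separates the subspecies. Pallens 2, 3 and 5 and quinquefasciatus 2 are the 4 brightest columns in every row except that of CPIJ001839-RA.

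The gene models on either side of the row were hardly read. Papilin CPIJ001829-RA, described after a protein of the extracellular matrix, had 0 to 2 reads per library, and the 16.8 kDa salivary protein CPIJ001841-RA had 0 to 3. Farther off on the scaffold, a second papilin model, CPIJ001828-RA, had 62 to 288 reads and an r of -0.58 with A3A. A pair of larval serum protein 2 genes, CPIJ001820-RA and CPIJ001822-RA, which encode storage proteins of the blood, had r of -0.17 and -0.21 with A3A. Not all r were negative: dynein heavy chain CPIJ001845-RA, with 1 to 85 reads, had r of 0.60 with A3A and 0.64 with CPIJ001836-RA. The models CPIJ001823-RA, CPIJ001850-RA and CPIJ001842-RA had r of 0.25, 0.15 and -0.15 with A3A. These genes on the same scaffold were named after their values were seen.

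Between the subspecies, the 3 genes had higher mean levels in pallens, with SDs among libraries nearly as large as the means or larger. A3A averaged 358 ± 425 CPM over the pallens libraries and 143 ± 272 CPM over the quinquefasciatus libraries (SD, n = 7 and 5), a log2 fold change of 1.32 with an SE of 1.6. CPIJ001836-RA averaged 741 ± 865 CPM over the pallens libraries and 463 ± 797 CPM over the quinquefasciatus libraries (SD, n = 7 and 5), a log2 fold change of 0.68 with an SE of 1.58. CPIJ001839-RA averaged 63.5 ± 62.4 CPM over the pallens libraries and 7.23 ± 7.16 CPM over the quinquefasciatus libraries (SD, n = 7 and 5), a log2 fold change of 3.15 with an SE of 0.87. Of the 3 genes, all of which passed the filter on low counts, 0 were called by the edgeR quasi-likelihood test at an adjusted p under 0.05, where 57 of 10617 genes, or 0.537%, were called. At an unadjusted p under 0.05 there was 1 of the 3, CPIJ001839-RA, where 1381 of 10617 genes, or 13.0%, passed. DESeq2 called the same gene, and called 295 of the 10600 genes it gave an adjusted p, or 2.78%. Since these values helped to choose the genes, nothing is read from these counts. In whole-larva RNA, fewer cells that express a gene and less RNA per cell cannot be told apart.

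Single libraries moved these folds. Without quinquefasciatus 2 the log2 fold change was 3.98 for A3A, 2.67 for CPIJ001836-RA and 3.28 for CPIJ001839-RA. Without pallens 2 it was 0.83 for A3A, 0.32 for CPIJ001836-RA and 2.67 for CPIJ001839-RA. With pallens 1 and quinquefasciatus 5 both left out it was 1.24, 0.60 and 4.07, in the same order of genes, a setting added after the data were seen. CPIJ001839-RA was then among the 366 of 10764 genes called, or 3.40%, and again nothing is read from that call of a gene chosen with its values known. The spread within a subspecies was large beside other genes: the SD of log2(CPM + 1) was 3.39 for A3A, 3.73 for CPIJ001836-RA and 1.44 for CPIJ001839-RA, against a median of 0.41 over all tested genes. By this SD the 3 genes ranked 4th, 2nd and 243rd of 10617. The 8 other cuticle protein genes of the row ranked from 13th (CPIJ001840-RA) to 61st (CPIJ001832-RA), so a wide spread was not particular to the 3.

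The 8 neighbours, which the choice of genes did not name, gave no call between the subspecies. Their log2 fold changes were 0.78 to 2.69, all 8 positive, with a median of 1.66 and SEs of 1.19 to 1.5. The 8 genes varied together, with r of 0.93 to 0.97 with A3A, so their folds are not 8 separate results. The edgeR adjusted p ranged from 0.444 for CPIJ001837-RA to 0.8 for CPIJ001832-RA. At an unadjusted p under 0.05 there were 0 of the 8, and DESeq2 and limma on log2(RPKM + 1) also called 0. Of all genes, limma called 118 of 10617, or 1.11%. A miss of the threshold with SEs of this size does not show that the subspecies were alike. The median of the 8 became 3.97 without quinquefasciatus 2.

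**Figure D4:**
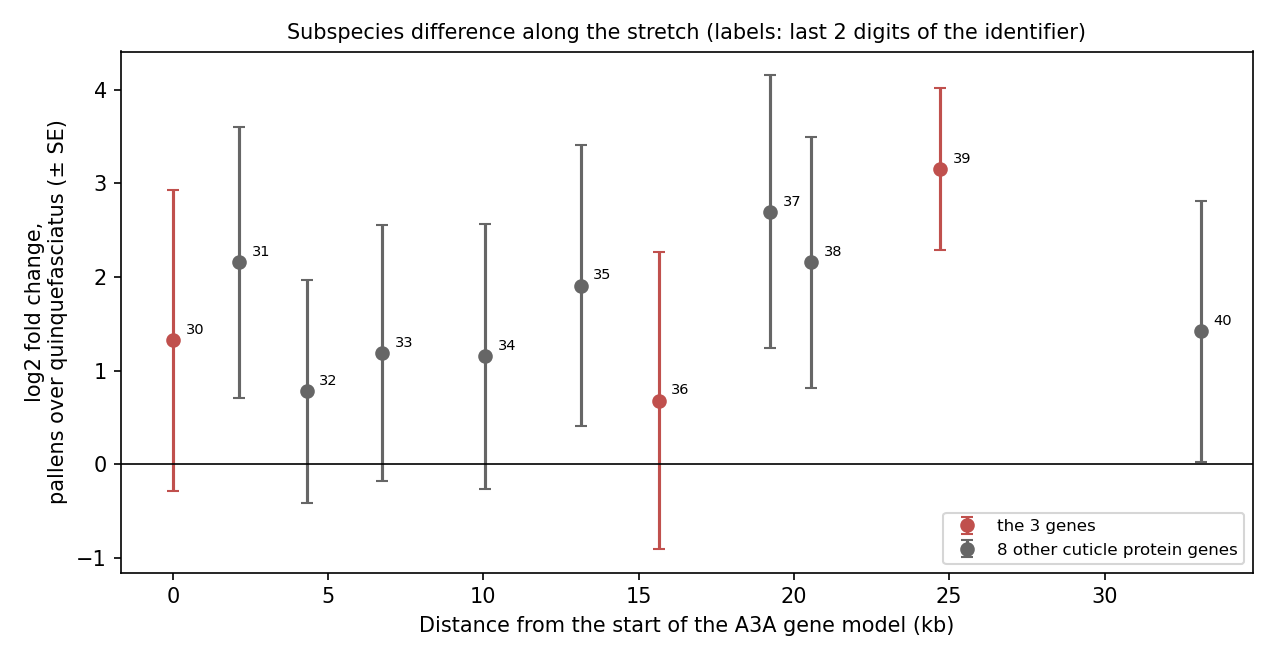
log2 fold change of pallens over quinquefasciatus for the 11 models of the row, against the distance of each model from the start of A3A in kb; bars are the SE of the edgeR fit, red points the 3 genes and grey points the 8 other cuticle protein genes. All 11 estimates are above 0, from 0.68 to 3.15, and the bar of CPIJ001839-RA is the shortest (SE 0.87). The estimates come from the same libraries and are not separate results.

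The breadth of coverage, the percent of a gene model under at least 1 read, gave a further view of the reads behind these values. In pallens 2 reads covered 96.44% of A3A, 98.25% of CPIJ001836-RA and 88.45% of CPIJ001839-RA, and in quinquefasciatus 2 they covered 99.86%, 99.73% and 88.83% of the same genes. The 8 neighbours had a median coverage of 60.94% in pallens 2 and 68.03% in quinquefasciatus 2. They ranged from 40.24% (pallens 2) and 39.16% (quinquefasciatus 2) for CPIJ001835-RA to 96.04% (pallens 2) and 95.78% (quinquefasciatus 2) for CPIJ001840-RA, which was thus covered more than CPIJ001839-RA in both libraries. CPIJ001839-RA was nowhere covered beyond 93.67%, reached with 193 reads in pallens 4, although pallens 2 had 791 reads on it. In quinquefasciatus 2 only 45 reads covered 88.83% of it.

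Coverage did not keep to the read count in pallens 6 and 7. The 297 reads on A3A in pallens 6 covered 60.88% of the model and the 201 reads in pallens 7 covered 59.37%, whereas 435 reads in quinquefasciatus 1 covered 98.63% and only 14 reads in quinquefasciatus 5 covered 60.74%. Among models of 500 to 1000 bases with 100 to 500 reads in the same library, 7.73% of 582 in pallens 6 and 5.82% of 619 in pallens 7 were covered less than A3A was. In pallens 6 the other 2 genes were also covered in part, CPIJ001836-RA to 74.46% with 498 reads and CPIJ001839-RA to 55.49% with 114 reads, while in pallens 7 they reached 98.25% with 720 reads and 84.73% with 45 reads. The median coverage of such models was 94.8% to 95.9% in pallens and 94.8% to 96.4% in quinquefasciatus. The middle A3A level of pallens 6 and 7 thus came from reads on part of the model, and whether those reads came from A3A was not tested.

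**Figure D5:**
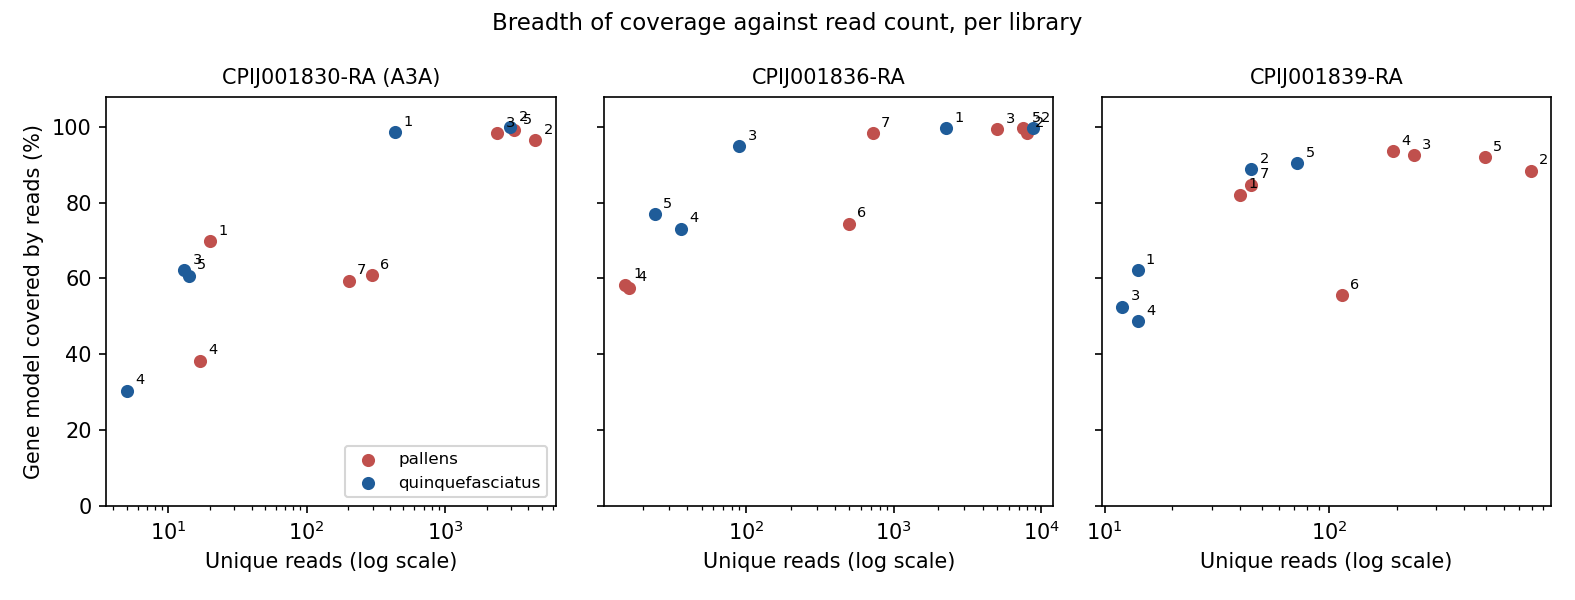
Percent of each gene model covered by reads against its unique reads (log scale), for the 3 genes; each point is a library with its replicate number, coloured by subspecies. Pallens 6 lies below libraries of like or lower read count in all 3 panels, and pallens 7 does so for A3A.

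Other cuticle protein genes of the genome varied with A3A in part. By words in the descriptions, 146 gene models were cuticle proteins and 75 of them passed the filter on low counts. Of the 64 that lay outside the row, 6 had an r of at least 0.9 with A3A, and the median r was 0.70, against 0.02 over all other tested genes. The summed level of the 135 models outside the row was 22194.3, 18533.6 and 13044.1 CPM in pallens 2, 5 and 3, 4135.59, 3215.25, 3130.42 and 2712.46 CPM in pallens 6, 7, 4 and 1, and 9607.74, 4866.48, 2556.77, 2133.87 and 2067.45 CPM in quinquefasciatus 2, 1, 3, 4 and 5. The 4 libraries highest for A3A were also the 4 highest in this sum. The files give the description larval cuticle protein A3A to 2 more models, named after their values were seen. CPIJ013761-RA on supercont3.479 had 15.1, 164 and 1492 CPM as lowest, median and highest value in pallens and 0.787, 59.5 and 259 CPM in quinquefasciatus, with an r of 0.82 with CPIJ001830-RA. CPIJ004289-RA on supercont3.65 had 0.260, 16.1 and 49.6 CPM in pallens and 0, 0.715 and 8.65 CPM in quinquefasciatus, with an r of 0.77.

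Among described genes, the 10 most like the mean of the 3 were mostly their neighbours. Likeness was the r over 12 libraries between log2(CPM + 1) and the mean of the 3 genes' standardized values, among described genes whose mean log2 CPM reached 3. Without these limits, 81 of 10614 tested genes, or 0.763%, had an r of at least 0.9 with the mean, the 8 neighbours included. Of the 10 with the highest r, 6 were in the row: CPIJ001838-RA, CPIJ001837-RA, CPIJ001840-RA, CPIJ001831-RA, CPIJ001835-RA and CPIJ001834-RA, with r of 0.99 to 0.95. The other 4 lay on other scaffolds. All 10 had r of 0.91 to 0.97 with A3A but only 0.61 to 0.77 with CPIJ001839-RA. An oligopeptide transporter (CPIJ002172-RA, r of 0.96), of a family that carries small peptides across membranes, had 2.86 to 65.6 CPM in pallens and 3.42 to 38.8 CPM in quinquefasciatus. Larval/pupal cuticle protein H1C (CPIJ002800-RA, r of 0.94) had 4.42 to 1145 CPM in pallens and 1.57 to 156 CPM in quinquefasciatus. Polypyrimidine tract binding protein (CPIJ006979-RA, r of 0.96), which binds RNA during splicing, and troponin C (CPIJ012251-RA, r of 0.95), the calcium sensor of muscle, moved far less, between 19.2 and 35.2 CPM and between 11.9 and 44.7 CPM in pallens, and between 19.1 and 28.1 CPM and between 9.70 and 24.5 CPM in quinquefasciatus.

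Among genes that build, harden or renew the cuticle, edgeR called 1 between the subspecies and DESeq2 called more, as given for each list. Over all tested genes the shares called were 0.537% by edgeR, 2.78% by DESeq2 and 1.11% by limma on log2(RPKM + 1), and 13.0% had an unadjusted edgeR p under 0.05. Of the 75 tested cuticle protein genes, the 3 and their 8 neighbours included, 0 were called by edgeR, 10 had an unadjusted p under 0.05, and 60 had positive fold changes, with a median log2 fold change of 1.24 against 0.02 over all tested genes. Outside the row, 49 of 64 were positive, with a median of 1.14. The 75 genes varied together, with a median r of 0.76 with A3A, so these folds are not separate results. DESeq2 called 2 of the 75, CPIJ001839-RA and cuticle protein 18.6 (CPIJ013765-RA), and limma on log2(RPKM + 1) called 0. Nothing is read from the call of CPIJ001839-RA, which was chosen with its values known. Outside the row, 9 of 64 had an unadjusted p under 0.05, and DESeq2 called CPIJ013765-RA alone. The mean of CPIJ013765-RA was 13.4 ± 14.6 CPM in pallens larvae and 1.29 ± 1.29 CPM in quinquefasciatus larvae (edgeR adjusted p = 0.201). The median of the list became 2.33 without quinquefasciatus 2. Of 17 tested tanning enzymes, which cross-link and darken cuticle proteins, 0 were called by edgeR, 4 had an unadjusted p under 0.05, DESeq2 called 1 and limma 0, and the median was 0.22. The 2 with the smallest p were a dopachrome-conversion enzyme (CPIJ002393-RA), with 50.3 ± 26.9 CPM in pallens larvae against 123 ± 37.7 CPM in quinquefasciatus larvae (edgeR adjusted p = 0.156), and a yellow protein (CPIJ018481-RA), with 98.9 ± 47.2 CPM in pallens larvae against 52.6 ± 17.5 CPM in quinquefasciatus larvae (edgeR adjusted p = 0.278).

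Of 25 tested genes of chitin synthesis and turnover, 1 rose and 0 fell in pallens in the edgeR test, with a median log2 fold change of -0.05. At an unadjusted p under 0.05 there were 6, of which 3 were higher in pallens, DESeq2 called 3 and limma 1. The gene called by all 3 tools was a chitinase-like gene, chitotriosidase-1 (CPIJ019120-RA), with 74.5 ± 12.8 CPM in pallens larvae against 23.6 ± 6.0 CPM in quinquefasciatus larvae (edgeR adjusted p = 0.00938), and its r with A3A was 0.22. A putative brain chitinase (CPIJ004564-RA) had 70.9 ± 27.9 CPM in pallens larvae against 36.1 ± 7.14 CPM in quinquefasciatus larvae (edgeR adjusted p = 0.136) and was called by DESeq2. The third DESeq2 call was basic endochitinase CPIJ019598-RA. CPIJ004564-RA was also the described gene most like CPIJ001839-RA, with an r of 0.88. Of 31 tested genes of a hormone list, which covers the ecdysone response, juvenile hormone and other hormones around the moult, 0 were called by edgeR. In this list 4 had an unadjusted p under 0.05, DESeq2 called 1 and limma 0, with a median of -0.13. The 2 with the smallest p were described as juvenile hormone-inducible proteins, CPIJ001964-RA with 6.42 ± 2.84 CPM in pallens larvae against 13.6 ± 3.16 CPM in quinquefasciatus larvae (edgeR adjusted p = 0.133), and CPIJ019680-RA with 15.1 ± 12.3 CPM in pallens larvae against 34.1 ± 14.7 CPM in quinquefasciatus larvae (edgeR adjusted p = 0.315).

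The other lists had lower median r with A3A than the cuticle protein genes outside its row. The median r with A3A was 0.70 for those 64 genes, 0.10 for tanning enzymes, -0.08 for chitin genes, -0.37 for the hormone list, -0.18 for 12 storage protein genes, -0.47 for 52 digestive serine protease genes, -0.29 for 35 muscle genes and -0.28 for 27 salivary and yolk genes of adult females. The hormone list was drawn by words in the descriptions, so its median does not stand for every gene of the ecdysone response. Its words missed Eip93F (CPIJ012997-RA), by name an ecdysone-induced protein, which had r of 0.95 with A3A and 0.96 with CPIJ001836-RA. Eip93F was named after its values were seen. Of 76 models of the salivary and yolk list, 25 were read in every library, and its summed level was 597 to 1139.9 CPM in pallens and 883 to 1317 CPM in quinquefasciatus. The summed level of digestive serine proteases was 3748 to 13281 CPM in pallens and 7885 to 16891 CPM in quinquefasciatus, and that of muscle proteins 34929 to 85142 CPM in pallens and 49809 to 97162 CPM in quinquefasciatus. edgeR called 0 genes in each of these 4 lists. At an unadjusted p under 0.05 (13.0% of all tested genes) there were 0 of 12 storage, 15 of 52 protease, 7 of 35 muscle and 8 of 27 salivary and yolk genes. DESeq2 (2.78% of all genes) called 0, 4, 0 and 2 genes of these lists, and limma (1.11%) 0, 2, 0 and 0. Nothing particular to these lists is read from the counts. The 2 with the smallest p were larval serum protein genes CPIJ006538-RA and CPIJ009032-RA (edgeR adjusted p = 0.403 and 0.455), chymotrypsin-like CPIJ002139-RA and CPIJ002126-RA (0.0535 and 0.091), tropomyosin CPIJ017856-RA and paramyosin CPIJ009151-RA (0.201 and 0.221), and salivary lipase CPIJ005463-RA and salivary angiopoietin CPIJ017657-RA (0.0692 and 0.0933). The part of developmental stage or tissue makeup of the pools in the levels of A3A was not tested.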

How the data were processed

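Per the labels' protocols, poly(A) RNA of pooled larvae was sequenced without strand information. The authors deposited 1 table per library with, per the file headers, the count of unique reads per gene model, its length, the percent of it covered by reads, and RPKM. Recomputing the deposited RPKM from count, length and header total gave the same values to rounding error, and the counts summed to that total in 12 of 12 libraries. The sources used here name no aligner, counter or genome build. Gene models without reads in a library were set to 0; 0 of the identifiers were in the RefSeq gene table at hand, and no sequence is shown.

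The counts were fitted with edgeR 4.0.16 in R 4.3.3 (TMM, filterByExpr, robust quasi-likelihood test, pallens over quinquefasciatus, Benjamini-Hochberg adjustment over 10617 genes). SEs of log2 fold changes were derived from the fold change and its F statistic. On data simulated for this comparison over 10419 genes, the test found 22 of 98 genes set to a 2-fold change. It found 82 of 91 set to 4-fold, and made 11 false calls in all. The 3 genes had within-subspecies SDs of log2(CPM + 1) of 1.44 to 3.73, against a median of 0.41. Recovery at a spread as wide as theirs was not tested. Alternatives were other scalings, no filter, DESeq2 1.42.0, limma 3.58.1 on log2 of the deposited RPKM with pseudocounts of 1 and 0.1, and each library left out. Leaving out pallens 1 with quinquefasciatus 5, or pallens 6 with 7, was added after the data were seen.

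The 3 genes and all lists were chosen with earlier results of these data known. Named were, by rule, the 3 genes, cuticle protein models with identifier numbers from 1820 to 1850 on the same scaffold, the 10 most alike described genes and the 2 smallest p of each list. Libraries were numbered in accession order.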

Additional observations from a re-analysis of the deposited data

Results flagged for a closer look

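Within quinquefasciatus, library 2 stood far above the other 4 libraries in CPM for 10 of the 11 cuticle protein genes of the row, by Dixon's criterion on the gap to the nearest library; the exception was CPIJ001839-RA. It had 626 CPM for CPIJ001830-RA, 448 CPM for CPIJ001831-RA, 128 CPM for CPIJ001832-RA, 282 CPM for CPIJ001833-RA and 341 CPM for CPIJ001834-RA. It had 113 CPM for CPIJ001835-RA, 1849.7 CPM for CPIJ001836-RA, 191 CPM for CPIJ001837-RA, 94.7 CPM for CPIJ001838-RA and 3277 CPM for CPIJ001840-RA. The gap to the next library was 0.768 to 0.904 of the whole range, where 0.71 is the critical value for 5 libraries. On the log2 scale the same gaps were 0.262 to 0.549 of the range and below it. For normally distributed values chance alone gives such a gap in about 1 of 20 groups. CPM as skewed as these need not keep to that rate. In all, 22 groups were examined, and the 10 genes vary together, so these are not 10 separate events. No cause was tested.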

How the results depend on the processing

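The number of genes called between the subspecies, 57, became 295 with DESeq2, 118 and 110 with limma on log2 RPKM with pseudocounts of 1 and 0.1, 366 with pallens 1 and quinquefasciatus 5 both left out, and 5 with pallens 6 and 7 both left out. With a single library left out it was 9 to 230: 230 without pallens 1, 209 without quinquefasciatus 5, and 9 to 33 without any other. Cuticle list calls became 2 with DESeq2, CPIJ001839-RA and CPIJ013765-RA, and stayed at 0 with any single library left out. With pallens 1 and quinquefasciatus 5 left out there was 1 call, CPIJ001839-RA. That gene was chosen with its values known, so nothing is read from its calls. The log2 fold changes were 0.83 to 3.98 for CPIJ001830-RA, 0.27 to 2.67 for CPIJ001836-RA and 2.67 to 3.87 for CPIJ001839-RA with a single library left out, and 1.24 to 2.59, 0.60 to 1.30 and 2.84 to 4.07 under the other alternatives. Their SEs in the main fit were 1.6, 1.58 and 0.87. The alternatives reused these libraries and the genes were chosen with this difference known, so nothing is read from the kept sign. The r of CPIJ001830-RA with CPIJ001836-RA was 0.96 to 0.98 with a single library left out, and that of CPIJ001836-RA with CPIJ001839-RA 0.32 to 0.58. The cause of these changes was not tested. No paired analysis was possible because the labels hold no replicate numbers that could match libraries of the subspecies. Counts of 5 to 20 reads limit the lowest A3A levels.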
